A study of Drosophila melanogaster with 16 samples.

Results

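The 5 pools of *D. melanogaster* larvae described here are the biological replicates of 1 group, the fly stock Ama-KTT/M/2 reared on food without toxin, and were chosen by their sample labels from a series of 16 arrays. Ama-KTT/M/2 was derived from Ama-KTT, a stock resistant to α-amanitin, the mushroom toxin that blocks RNA-polymerase II, and was made isogenic for both large autosomes, while its X chromosome was not fixed. No toxin was given to these larvae, and all were kept at 25°C. The tubes had been started on several days, and larvae in the last larval instar that were still feeding were picked at random across the tubes and frozen on one morning. Each pool held 10 whole larvae and was measured on 1 Affymetrix Drosophila Genome 2.0 array. Whether larvae were sorted by sex before pooling is not stated. The question is which genes differed most from one pool to the next and which of them moved together. Because all 5 pools belong to a single group, every statement below describes these pools, and no statistical test between groups was made.

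The cuticle is rebuilt at each moult, when the epidermis switches on large families of cuticle protein genes in short bursts under the control of the steroid hormone ecdysone. In the last larval instar, pulses of ecdysone also switch on the glue genes of the salivary gland, and the fat body makes storage proteins. Fat body and haemocytes answer infection through the Toll and Imd pathways, which induce different sets of secreted antimicrobial peptides.

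The deposited values are PLIER intensities on a linear scale. They were analysed as log2(intensity + 16), and a probe set was tested for variation when its mean intensity over the 5 pools was at least 64, which held for 9579 of 18769 probe sets. Most of them were steady, with a median SD between pools of 0.10 log2 units and a 90th percentile of 0.25. A probe set is called varying where its highest pool lay at least 1 log2 unit, or 2-fold, above its lowest. This held for 384 probe sets, or 4.01% of those tested, which cover 316 named genes. Of the 384, 156 spanned at least 4-fold and 69 at least 16-fold. Intensities are given below in the order of pools 1, 2, 3, 4 and 5, whose numbers are names and carry no rank. Of the named genes, *CG2962* stood just inside the limit, with intensities of 178, 305, 150.1, 148 and 145 and a range of 1.001 log2 units. *CG14191* stood just outside it, with intensities of 1712, 1755, 1027, 870.2 and 875 and a range of 0.9986 log2 units.

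The variation was uneven across the pools. The first principal component of the log2 values carried 72.2% of the variance and set pool 2, at a score of 40.1, apart from pools 3, 4 and 5, at -16.0, -15.3 and -18.8, with pool 1 between them at 10.0. The second component carried 18.4% and separated pool 1, at 21.8, from pool 2, at -10.5. Pools 4 and 5 were the most alike, with 23 probe sets at least 2-fold apart, and pools 2 and 5 the least alike, with 247. Without pool 2, 222 probe sets varied.

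**Figure D1:**
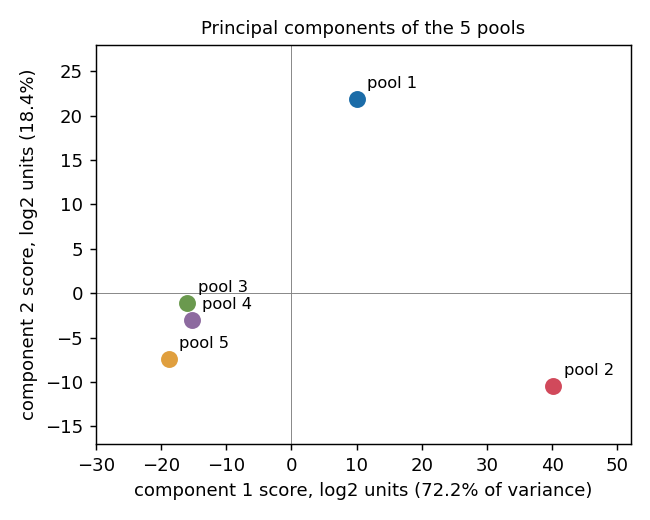
Scores of the 5 pools on the first and second principal components of log2(intensity + 16) over 9579 probe sets, in log2 units, 1 point per pool. Pool 2 lies far to the right at 40.1, pool 1 lies highest at 21.8 on the second component, and pools 3, 4 and 5 lie together on the left.

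The ratio of 3′ to 5′ control signal, a measure of RNA integrity, lay between 1.53 and 1.97 for actin, between 1.52 and 1.76 for GAPDH and between 2.81 and 3.31 for eIF-4a. Pool 2 had the lowest ratio for actin and for eIF-4a and the highest for GAPDH. Among the hybridization controls added to every array, the 3 probe sets for bioB, the dimmest of these controls, were 9.05 to 9.75 times brighter in pool 2 than the mean of the other pools. Those for bioC, bioD and cre were 1.03 to 1.37 times as bright. The part of this difference in the values of pool 2 was not tested. Intensities above 16000 were found in pool 2 (7 probe sets) and pool 1 (2 probe sets), and in none of pools 3, 4 and 5.

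To group the varying probe sets, the pools were sorted by log2 value, and a probe set was called stepped where the widest gap between neighbouring pools took at least 0.5 of the whole range, so that the pools on either side of the gap form a high and a low side. This rule was widened, after the values had been seen, from one for a single outlying pool. In 106 of the 384 probe sets (1.11% of those tested) pool 2 stood above the other 4, and in 94 (0.981%) pools 1 and 2 stood above the other 3. Pool 2 stood below the others in 24 (0.251%), pool 3 in 16 (0.167%) and pool 1 in 9 (0.094%). Another 114 varied with no wide step. Over all tested probe sets, varying or not, the same step rule put pool 2 above the others in 6.40% and below them in 8.09%.

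**Figure D2:**
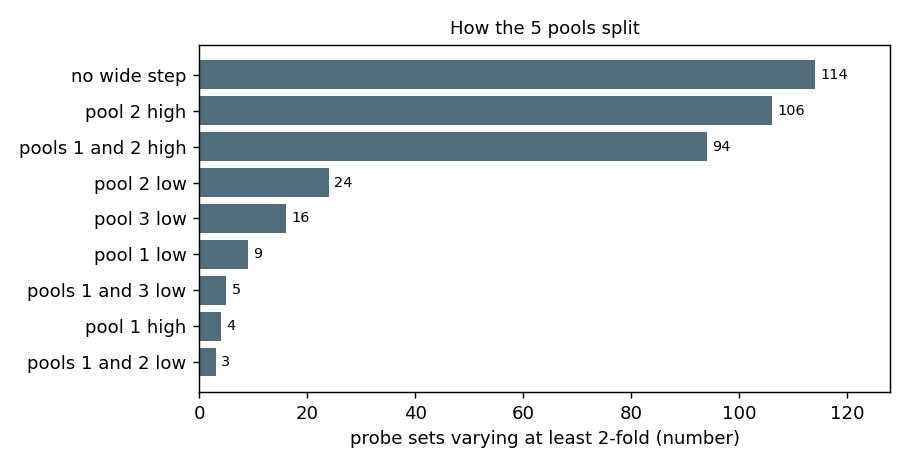
Number of varying probe sets for each way in which the 5 pools split into a high and a low side, for splits with at least 3 probe sets. The splits with pool 2 high (106) and with pools 1 and 2 high (94) are the most frequent besides the 114 with no wide step.

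The group with pools 1 and 2 high is given first. Of its 86 named genes, 11 were of the RR family described below, which makes up 0.760% of all tested genes, 4 were of the Tweedle family, which makes up 0.236%, and none was on the list of other cuticle proteins. The gene with the largest SD of all, 4.75 log2 units, was *CG14564*, known by its annotation number only, with intensities of 27830.5, 26763, 47.1, 56.5 and 49.9. Pools 1 and 2 were nearly equal, and their mean stood 533 times above that of the other 3. *TwdlM*, a member of the Tweedle family of secreted cuticle proteins, had intensities of 9205, 92900, 156, 212 and 189.5. Its value in pool 2 was the highest of any probe set in the 5 pools, and pool 1 lay between pool 2 and the rest. *TwdlN*, which lies close to it on chromosome arm 3R, had intensities of 7744, 8101, 354, 559.6 and 190.3, and there pools 1 and 2 were nearly equal. *Ccp84Ae*, a cuticle protein gene of the Rebers and Riddiford (RR) chitin-binding family on 3R, had intensities of 8316, 13991, 138, 133 and 117. *Cpr5C*, an RR gene on the X, had intensities of 859, 2493, 72.7, 70.4 and 83.2. In both RR genes pool 2 was brighter than pool 1, and both pools were far above pools 3, 4 and 5. The median ratio between the high and the low side over the 94 probe sets was 3.88, and 46 of them reached 4. In 29 of the 94 the mean of the low side was under 64, so that their place among the tested probe sets depended on pools 1 and 2. With the limit on intensity set on the median of the pools, the group held 70.

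Genes known by a number only made up 57 of the 86 named genes of this group, beside 40 of the 83 with pool 2 alone high. Of all 316 varying genes, 182 had a symbol starting with CG, CR or lncRNA. The share over all tested genes was not counted. *CG14851* had intensities of 1154, 3747, 2.44, 5.72 and 4.0, so that pools 1 and 2 were at least 153 times higher, with a mean of the low side under 16 taken as 16. *CG12971* had intensities of 2696, 3469.8, 22.0, 24.9 and 20.2, with little difference within each side. *CG14573* had intensities of 941, 919, 2.0, 7.41 and 0.55, and its high side was at least 58.1 times higher on the same rule. Pool 4 was not always low. *CG4229* had intensities of 12627, 11130.1, 151, 1015 and 147, with pool 4 well above pools 3 and 5. The same was seen in *CG13679*, with 6644, 6161, 192, 911 and 139, and in *CG34273*, with 1732, 1659, 35.2, 166 and 26.6. Pool 4 was the highest of pools 3, 4 and 5 in 56 of the 94 probe sets. In *CG32237*, with 17369.7, 17713, 495, 4606 and 592, and in *CG13060*, with 8814, 8929, 393, 2559 and 571, pool 4 was bright enough for these genes to fall outside the group by the step rule. Pool 1 was brighter than pool 2 in 43 of the 94. Neither this count nor that for pool 4 was made over all tested probe sets, so neither has a background beside it.

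Some genes with a part in hardening, colouring or digesting cuticle varied as well. *Ddc*, for dopa decarboxylase, which makes the dopamine used in tanning, had intensities of 606, 763, 301, 301 and 327, a range of 2.46-fold on the scale with the offset. *e* (*ebony*), whose enzyme joins dopamine to beta-alanine, had intensities of 118, 92.1, 35.5, 40.1 and 42.5. *y* (*yellow*), needed for black pigment, had intensities of 162, 241, 86.0, 113 and 92.2. In these 3 genes, as in *Cht5*, for a chitinase, with 319, 259, 75.2, 149 and 63.0, pools 1 and 2 were above the other 3, but *y* and *Cht5* had no wide step and are not in the group. Of the 19 tanning and yellow genes tested 3 varied (15.8%), beside 4.06% of all named genes. Of 29 genes for chitin synthesis and breakdown *Cht5* alone did (3.45%). With the limit on intensity set on the median, 2 tanning and yellow genes varied.

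Other genes in the group were not cuticle genes by name. *ng4*, one of the new glue genes of the salivary gland, had intensities of 515, 1249.8, 105, 104 and 74.6. *Jhbp12*, of a family named for binding juvenile hormone, had intensities of 465, 401, 168, 136 and 136. *Cyp304a1*, a cytochrome P450 gene, had intensities of 217, 211, 58.8, 53.5 and 52.6. Pools 3, 4 and 5 were close together in all 3 genes. *Ugt36D1*, a UDP-glycosyltransferase gene, had intensities of 2319, 2094, 1116, 705 and 757, and *Obp56d*, an odorant-binding protein gene, had 5574, 7991, 2479, 2604 and 3083. In these too, the lower of pools 1 and 2 exceeded the highest of pools 3, 4 and 5.

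**Figure D3:**
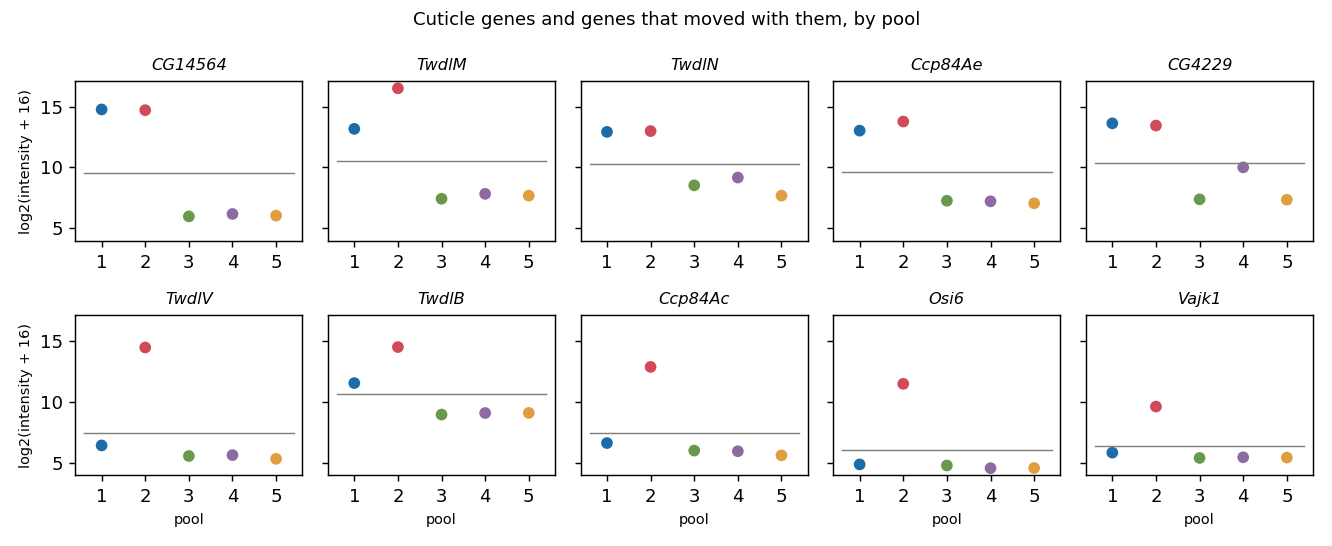
log2(intensity + 16) of 10 cuticle genes or genes that moved with them in pools 1 to 5, 1 point per pool, with the mean of the pools as a line. In the upper row pools 1 and 2 are high, with pool 4 intermediate in *CG4229*, and in the lower row pool 2 stands above the other pools, with pool 1 next in *TwdlB*.

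The group with pool 2 alone on the high side had a median ratio of 8.10 between pool 2 and the mean of the others, and 68 of its 106 probe sets reached 4. In 55 of the 106 the mean of the other pools was under 64, and with the limit set on the median the group held 51. It held 11 RR, 9 Tweedle, 8 antimicrobial peptide and 4 Osiris genes among its 83 named genes. Of all 7628 named genes tested, 58, 18, 13 and 7 were on these lists. Of the 8 antimicrobial peptide genes 7, and all 4 Osiris genes, were tested only because of pool 2, so these counts follow in part from the limit on intensity. The largest SD in it was that of *CG14961*, known by its number only, with intensities of 23.7, 25427, 29.0, 26.2 and 25.4, a ratio of 975. *TwdlV*, another Tweedle gene, had intensities of 69.0, 22486, 30.6, 33.1 and 23.8. *Ccp84Ac*, an RR gene of the same cluster as *Ccp84Ae*, had intensities of 81.4, 7435, 47.4, 45.2 and 32.3. In both, pool 1 was slightly above pools 3, 4 and 5 and far below pool 2. *TwdlB* had intensities of 2951, 23046, 477, 523 and 527, and there pool 1 was clearly raised as well. *Cpr23B*, an RR gene, had intensities of 5.8, 647, 6.96, 2.69 and 6.14, so it was above 16 in pool 2 only, where it was at least 40.4 times higher than the rest. *Vajk1*, which encodes a cuticle protein and was the only one of 18 tested genes on the list of other cuticle proteins that varied, had intensities of 40.5, 762, 25.7, 27.3 and 26.6. *Muc91C*, a mucin gene and the only one of 14 tested peritrophic membrane and mucin genes that varied, had intensities of 66.5, 812, 60.4, 60.8 and 43.2, again with pool 2 alone apart. The shares of these last lists that varied were 5.56% and 7.14%, beside 4.06% of all named genes. *Vajk1* and *Muc91C* had means under 64 in the other pools and were tested only because of pool 2. With the limit on the median, none of either list varied.

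The Osiris genes, a family of insects clustered on 3R and active in epithelia that lay down cuticle, included a few genes that were bright in pool 2. This list was added after the values had been seen. *Osi6* had intensities of 12.8, 2822, 11.1, 7.31 and 7.47. *Osi14* had intensities of 42.1, 1575, 45.9, 42.7 and 35.9, and *Osi9* had 25.0, 638, 23.9, 31.2 and 36.4. Only pool 2 was above 64 in these 3. *Osi2* had intensities of 56.4, 199, 18.3, 22.4 and 36.1, with pool 1 second. These 4 had means under 64 in the other pools, so they were among the 7 tested only because of pool 2, and none varied with the limit on the median. The other 3 tested, *Osi7*, *Osi11* and *Osi12*, lay between 63.7 and 138 in every pool. The remaining 17 of the 24 Osiris genes on the array had mean intensities under 64. Over all 24, with no limit, the mean log2 level was 5.54, 6.35, 5.51, 5.53 and 5.42 in pools 1 to 5.

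Over the whole RR list, 58 of 81 genes were bright enough to test and 27 varied, with a median SD of 0.38. Over all 7628 named genes tested, 4.06% varied and the median SD was 0.10. Pools 1 and 2 were on the high side in 11 of the 27 RR genes, and pool 2 alone in 11. Of the Tweedle list, 18 of 24 genes were tested and 15 varied, with a median SD of 1.56. Pool 2 alone was high in 9 of them and pools 1 and 2 in 4. *TwdlK*, with intensities of 382, 1189.9, 94.2, 124 and 96.4, had no wide step, and *Twdlalpha*, with 1419.9, 749, 607, 506 and 616, was brightest in pool 1. The mean log2 level of the 18 tested Tweedle genes was 9.0, 11.14, 7.6, 7.71 and 7.53 in pools 1 to 5. That of the 58 RR genes was 9.65, 10.23, 9.0, 9.05 and 9.02. Both lists had pool 2 highest and pool 1 second. Over all 24 Tweedle genes on the array, with no limit on intensity, the level was 8.06, 9.71, 7.03, 7.13 and 7.01. Over all 81 RR genes it was 8.45, 8.86, 7.94, 8.0 and 7.98, again with pool 2 highest and pool 1 second.

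Many bright cuticle genes did not take part. The larval cuticle gene *Lcp65Ae* had intensities of 12492, 12578, 12261, 12751 and 12550.2. *Lcp9*, another, had 10741, 10777, 10896, 11702 and 11756, and *TwdlO* had 4222, 4572, 5242, 5084 and 5261. Pools 1 and 2 were not both above the others in any of these 3. In 85 of the 384 probe sets the mean over the 4 pools other than the brightest was under 64, so that they were tested only because of 1 pool, and counts and levels over tested genes are raised by such members. Among the varying genes these were 6 of the 27 RR and 5 of the 15 Tweedle genes. With the limit set on the median instead, 20 RR and 9 Tweedle genes varied.

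**Figure D4:**
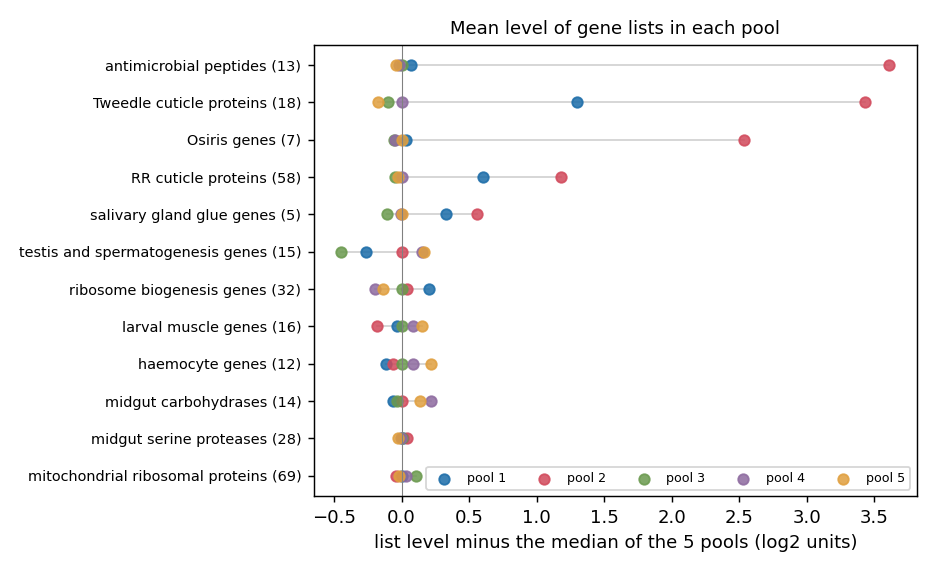
Mean log2(intensity + 16) of the tested genes of 12 lists in each pool, minus the median of the 5 pools, in log2 units, with the number of tested genes in parentheses. Pool 2 stands far to the right for antimicrobial peptide, Tweedle and Osiris genes, pool 1 is second for both cuticle families, and pool 3 is lowest for testis genes.

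Immune genes stood out in pool 2 as well, and not in pool 1. *Drs* encodes drosomycin, an antifungal peptide that is the standard readout of the Toll pathway, and had intensities of 28.4, 6213, 26.3, 34.5 and 24.1. *Mtk*, which encodes the peptide metchnikowin, had intensities of 19.7, 769.9, 13.4, 10.2 and 13.9. The Bomanins are short secreted peptides induced through Toll. *BomBc2*, one of them, had intensities of 115, 33703, 85.5, 91.5 and 94.3. *BomS5* had intensities of 17.3, 5710.2, 18.8, 16.2 and 13.3, and *BomS2* had 8.69, 3622, 8.16, 4.41 and 8.85. Pool 2 stood 349, 348 and at least 226 times above the mean of the others in these 3 genes, whose other pools lay close together. *BomS6*, *BomT3* and *BomBc3* had intensities of 494, 843 and 337 in pool 2, and none above 49.7 elsewhere. *Bbd* (*bombardier*), which is needed for Bomanins to be present in the haemolymph, had intensities of 132, 2229, 169, 171 and 174.

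Upstream genes of the Toll pathway differed less. *SPE*, for the protease that activates the ligand of Toll, had intensities of 557, 1030.2, 579, 573 and 572. *nec*, for a serpin that restrains the same cascade, had intensities of 316, 518, 329.6, 323 and 323. Both were under the 2-fold limit, with ranges of 0.87 and 0.69 log2 units, and in both pool 2 was the highest and the other 4 pools were within a narrow band. The receptor gene *Tl* had intensities of 303, 360.2, 305, 326 and 325, and the ligand gene *spz* had 292, 300.4, 295, 311 and 293. *Rel*, for the transcription factor of the Imd pathway, had intensities of 525, 740.5, 485, 444 and 488, highest in pool 2. No list of Imd targets was made. The targets of Imd given next, chosen after their values were seen, were dim in all pools. The part of either pathway in the values of pool 2 was not tested. *DptB*, for a diptericin, had intensities of 48.5, 18.7, 38.1, 43.6 and 35.0, lowest in pool 2. *CecB*, for a cecropin, had 37.7, 59.6, 31.3, 38.1 and 32.2, highest in pool 2 but under 64, and *AttD*, for an attacin, had 14.3, 16.1, 8.48, 6.61 and 23.9. *Def*, for defensin, stayed between 15.5 and 19.9.

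Of the antimicrobial peptide list, 13 of 22 genes were tested and 8 varied, with pool 2 on the high side in all 8. The 5 others, *IM33*, *Drsl1*, *Drsl3*, *Drsl4* and *edin*, stayed within 2-fold, and *IM33* had intensities of 2754, 2683, 2634, 2695 and 2613. The mean log2 level of the 13 genes was 6.5, 10.03, 6.42, 6.41 and 6.39 in pools 1 to 5. Of the 8 varying genes, 7 had a mean under 64 in the other pools and were tested only because of pool 2, so this level follows in part from the limit. Over all 22 genes of the list on the array, with no limit, it was 6.06, 8.27, 5.97, 5.99 and 5.98. None of 25 tested genes of immune recognition and signalling varied, but 14 were highest in pool 2, against 24.1% of all tested genes. Their mean log2 level was 8.76, 8.94, 8.78, 8.77 and 8.83 in pools 1 to 5. Without pool 2, none of the antimicrobial peptide or Osiris genes varied, whereas 16 RR and 6 Tweedle genes did. With the limit on the median, 1 antimicrobial peptide gene varied.

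**Figure D5:**
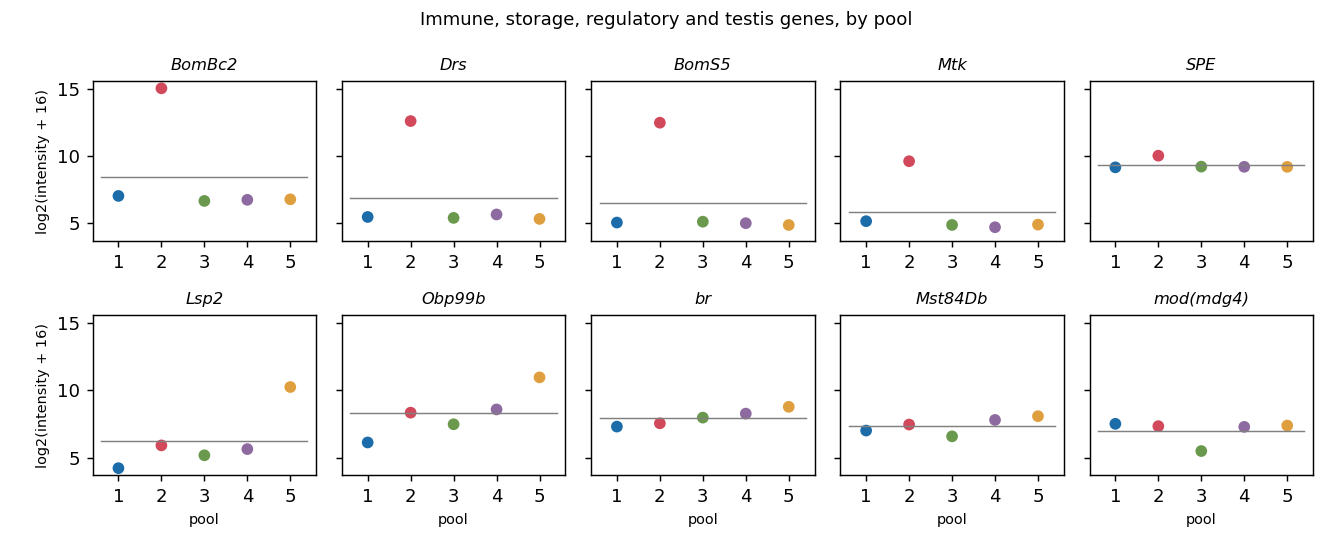
log2(intensity + 16) of 10 further genes in pools 1 to 5, 1 point per pool, with the mean of the pools as a line. The 4 antimicrobial genes and, by less, *SPE* stand out in pool 2, *Lsp2* and *Obp99b* are highest in pool 5, *br* is lowest in pool 1 and highest in pool 5, and *mod(mdg4)* is low in pool 3.

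Some genes of both large groups lay near each other in the genome. In the gene order of the Release 6 annotation, 29 of 85 genes with pools 1 and 2 high had another of them among the 5 nearest genes on either side, and 3.75% of the other tested genes had one there. For genes with pool 2 high these were 23 of 83 and 4.01%. With pools 1 and 2 high, *TwdlM*, *TwdlL* and *TwdlN* formed a run on 3R, and *CG13069*, *CG13068* and *CG13066* one on 3L. With pool 2 high, *BomBc2*, *BomS2*, *BomS5* and *BomS6* formed a run on 2R, *BomT3* and *BomBc3* one on 3R, and *Osi2*, *Osi6* and *Osi9* another on 3R. Such neighbours are often members of 1 family that can share sequence, so they are not independent observations.

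The hormone genes gave smaller differences. *Cyp18a1*, whose enzyme breaks down ecdysone, varied in both of its tested probe sets and was highest in pool 2 in both, with intensities of 230.1, 503, 214, 172 and 208 in the one of larger SD. *Jhbp4*, of the juvenile hormone binding family, had intensities of 35.8, 220.5, 26.2, 23.6 and 26.1, also highest in pool 2. *Jhbp7* had intensities of 3424, 2826, 1855, 1723 and 1462, highest in pool 1 and lowest in pool 5. *br* (*broad*), an early ecdysone response gene needed for the turn to pupal development, had intensities of 142, 172, 235, 293 and 423, lowest in pool 1 and highest in pool 5. It was the only one of 11 tested ecdysone response genes that varied (9.09%). Of 13 juvenile hormone genes 3 varied (23.1%), and of 8 genes of ecdysteroid synthesis and breakdown 1 (12.5%), beside 4.06% of all named genes. *Jhbp4* had a mean under 64 in the other pools and was tested only because of pool 2. With the limit on intensity set on the median, 2 juvenile hormone genes varied. The receptor gene *EcR* had intensities of 148, 146, 157, 193 and 213, with pools 4 and 5 above the rest. The ecdysone-dependent cuticle gene *Edg78E* had intensities of 276, 828, 209, 241 and 217, highest in pool 2, whereas *Edg84A*, with 17.4, 16.8, 14.6, 17.6 and 25.2, was dim in every pool.

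Markers of the end of larval life were dim in most pools. *Lsp2*, for a storage protein made by the fat body late in larval life, had intensities of 2.57, 44.1, 20.1, 33.7 and 1202, so it was above 64 in pool 5 only. The fat body gene *Fbp1*, also induced late in this instar, did not exceed an intensity of 0.025 in any pool. *Fbp2*, another fat body gene, did not exceed 19.4. The glue genes *Sgs1*, *Sgs3*, *Sgs4*, *Sgs5*, *Sgs5bis*, *Sgs7* and *Sgs8* had no intensity above 6.21 in any pool. Salivary gland genes that are active before the glue genes were bright instead. *ng3* had intensities of 5711, 6428, 7245, 7596 and 8146, and *ng1* had 3567, 3231, 4000.0, 4378 and 5009. *Pig1* had intensities of 1453, 1361, 1138, 1219.7 and 1317, and none of these 3 varied. All 9 *Eig71E* genes, which are active at the onset of metamorphosis, had means under 64. Of the storage, fat body and glue (*Sgs*) genes named here as markers of the label, *Lsp2* in pool 5 was thus the only one above 64.

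*Obp99b*, an odorant-binding protein gene, had intensities of 53.9, 309, 163, 367 and 1987, with pool 5 highest and pool 1 lowest as in *Lsp2*. The same ends were found for *CG32249*, with 74.3, 205, 216, 369.7 and 844, and for *CG13230*, with 565, 1125, 1790.5, 2018 and 2639.6. In *CG3216*, with 10.0, 131, 165, 282 and 280.4, pool 1 stood apart below the others. It did so also in *ZnT33D*, a zinc transporter gene, with 5.63, 45.9, 60.9, 100.3 and 126. Pool 1 was lowest and pool 5 highest in 24 of the 384 varying probe sets, or 6.25%, against 7.14% of all tested. Pool 5 was lowest and pool 1 highest in 51, or 13.3%, against 5.55%. The most frequent full order among the varying probe sets was 5, 3, 4, 2, 1 from low to high. It was found in 31 of them, or 8.07%, against 0.96% of all tested.

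Lists with few or no varying genes still had small shared shifts. *PPO1*, for a prophenoloxidase made in crystal cells of the blood, had intensities of 1290.1, 1513, 1521, 1798 and 2136. *PPO2*, for another, had 1339, 1573, 1532, 1912 and 2257, and both were lowest in pool 1 and highest in pool 5. None of the 12 tested haemocyte genes varied, but 9 were highest in pool 5, where 22.2% of all tested genes had their highest value. *sls*, which encodes a titin-like muscle protein, had intensities of 929, 643, 1003, 1209 and 1345. It was the only one of 16 tested muscle genes that varied (6.25%, beside 4.06% of all named genes). The other 2 tested probe sets of *sls* did not vary. None of 32 ribosome biogenesis genes varied, but 26 were highest in pool 1, against 19.2% of all tested genes, and 29 were lowest in pool 4 or 5, against 37.3%. Their mean log2 level was 9.53, 9.37, 9.32, 9.13 and 9.19. None of 69 mitochondrial ribosomal protein genes varied, but 57 were highest in pool 3, against 17.4% of all tested genes. Their mean log2 level was 9.9, 9.86, 10.01, 9.93 and 9.88. In whole larvae, fewer cells of a type and less RNA per cell cannot be told apart.

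Genes of the testis had pool 3 low. *Mst84Db*, a sperm tail protein gene, had intensities of 113, 160.0, 79.8, 207 and 255. *betaTub85D*, the tubulin gene of the male germ line, had intensities of 44.6, 77.3, 37.7, 89.8 and 119.8. *ocn* (*ocnus*), a testis gene, had intensities of 74.0, 102, 52.8, 139.7 and 153. In each, pool 3 was the lowest, pool 1 came next and pools 4 and 5 were the highest. Of 15 testis and spermatogenesis genes tested, out of 60 on the array, 5 varied (33.3%), against 4.06% of all named genes. Of the 15, 11 were lowest in pool 3, against 12.8% of all tested genes, and 13 were highest in pool 4 or 5, against 39.3%. Without pool 3, 2 of the list varied, and with an offset of 64 in place of 16, 1 did. The mean log2 level of the 15 was 6.78, 7.05, 6.6, 7.2 and 7.21. Pool 3 lowest, then pool 1, then pool 2, and pools 4 and 5 on top was an order shared by 31 varying probe sets, or 8.07%, against 1.61% of all tested.

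Of the 16 probe sets with pool 3 low, 4 genes with roles known from the germ line are given here, chosen after their values were seen. The same 16 also include *mod(mdg4)*, *Hsp26*, *ms(3)76Ba*, *Rbp4* and others, which were not sorted here by role. *blanks*, for a testis RNA-binding protein, had intensities of 272, 339, 154, 389.8 and 359. *eIF4E3*, for an initiation factor of the testis, had intensities of 104, 147, 60.2, 161 and 142. *RpS19b*, a germ-line copy of a ribosomal protein gene, had intensities of 294, 336, 178, 403 and 339.9 and was the only one of 38 tested cytosolic ribosomal protein genes that varied. *ATPsynGL*, with 69.8, 84.9, 34.7, 93.7 and 85.2, was the only one of 59 respiratory chain genes. The shares of these lists that varied, 2.63% and 1.69%, were below the 4.06% of all named genes. In all 4 genes pool 3 was the lowest. *Yp3*, a yolk protein gene of females, had intensities of 126, 111, 97.0, 98.6 and 72.0, highest in pool 1 and lowest in pool 5, and did not vary. The share of males in each pool is not stated, and its part in these values was not tested.

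Some genes had 2 separate levels, with 1 or more pools far below the others. *croc* (*crocodile*), a forkhead transcription factor gene, had intensities of 172, 125, 157, 3.19 and 9.07, bright in pools 1, 2 and 3. *TTLL3A*, for a tubulin-modifying enzyme, had intensities of 187, 19.6, 16.8, 174 and 32.4, bright in pools 1 and 4. *CG17572* had intensities of 232, 4.53, 202, 198 and 244, dim in pool 2 only. So were *CG45067*, with 89.3, 1.98, 94.4, 97.5 and 101, and *side-III*, with 194, 7.25, 202, 216 and 180.4, although the second tested probe set of *side-III* did not vary. *mod(mdg4)*, a chromatin protein gene with many isoforms, had intensities of 167, 146, 28.9, 140.2 and 151 in 1 probe set, dim in pool 3. None of its 7 other tested probe sets varied. *nompA*, needed in mechanosensory organs, had intensities of 150.5, 143, 155, 131 and 51.8, dim in pool 5. In 15 genes with at least 2 tested probe sets of which 1 or both of the brightest 2 varied, both varied in 4, and the highest pool was the same in 9.

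Digestive and detoxification genes are given list by list. None of 28 midgut serine protease genes varied, the highest SD being 0.28, and *betaTry*, for a trypsin, had intensities of 12956, 13766, 12942, 11813 and 11716. Of 14 carbohydrase genes 3 varied (21.4%, beside 4.06% of all named genes), all of them alpha-mannosidase genes. *LManVI* had intensities of 412, 507, 676, 1138 and 1014 and *LManV* had 216, 234, 215, 499 and 358, both brightest in pool 4. Of 55 *Cyp* genes 4 varied (7.27%), of 24 *Ugt* genes 2 (8.33%), and of 29 *Gst* genes none, beside the same 4.06%. The median SD was 0.13 for carbohydrase genes and 0.16 for *Cyp* genes, against 0.10 over all named genes. *Cyp9b2* had intensities of 5028, 6296, 4570, 2875 and 3913, lowest in pool 4. *Cyp4d8* had intensities of 33.7, 47.2, 66.4, 111 and 98.6, lowest in pool 1 and highest in pool 4. *FASN1*, for fatty acid synthase, had intensities of 13342, 13649, 13627, 13719 and 13626, with a range of 0.04 log2 units. Of the 40 lists with a tested gene, 17 had no varying gene and 12 had 1.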

How the data were processed

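Images were read by the authors in Affymetrix Expression Console 1.2. The deposited intensities came from Affymetrix Power Tools, where the authors quantile normalized the 16 arrays of the series, adjusted for mismatch probes and summarised probe sets with PLIER. These deposited intensities are linear and were used as given. The 11 arrays of the other groups and the 183 control probe sets were left out. Names came from the platform's table, updated through the Release 6 gene table, so that 13647 probe sets had 1 gene, 402 several and 4720 none named here.

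SD and range over the 5 pools were taken on log2(intensity + 16) where the mean intensity reached 64, with Python 3.11.15. The scripts were tested on simulated data. The pools, the 42 gene lists and the rules were chosen with earlier results of these data known; the Osiris list and the step rule were added after the values were seen. List counts use the brightest probe set of each gene, and values of single genes the one of largest SD. By the rule, the named genes were the 30 of largest SD, up to 4 varying genes of each list (or the brightest where none varied) and up to 5 for each single outlying pool in each direction. The text names a part of them. *Osi2*, *Osi9*, *Osi14*, *Bbd*, *SPE*, *nec*, *croc*, *TTLL3A* and other genes outside the rule were chosen after their values were seen. The genes *Dsor1*, *stwl* and *dj-1beta*, taken into lists by symbol alone, were removed before counting. Principal components were taken of log2 values centred per probe set. The alternatives are offsets, filters, scalings and leaving out each pool.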

Additional observations from a re-analysis of the deposited data

Results flagged for a closer look

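A gene or list level was set aside for a closer look where the highest or lowest of the 5 pools was separated from its nearest neighbour by more than 0.71 of the whole range on the log2 scale. Chance gives this in about 1 of 20 groups; it was seen in 35 of 110 genes looked at, many of which the rules picked for such a gap, in 4 of 38 list levels, and in 684 of all 9579 tested probe sets. The share of the range is given for each.

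Pool 2 was far above the other 4 for the immune genes *BomS5* (0.97), *BomBc2* and *BomS2* (0.96 each), *Drs* (0.95), *SPE* (0.94), *nec* (0.92) and *Bbd* (0.91). It was far above them also for the Osiris and cuticle protein genes *Osi6* (0.96), *Osi14* (0.95), *Cpr23B* (0.94), *Vajk1* and *Osi9* (0.90 each), *TwdlV* (0.88) and *Ccp84Ac* (0.86). The same held for *CG14961* (0.98), *Muc91C* (0.87), *CG15712* (0.94), *CG13049* (0.92), *Jhbp4* (0.85), *GstD1* (0.75) and *Cyp18a1* (0.74). In *GstD1*, with intensities of 9822, 10692, 10031, 9881 and 9982, the differences were small. The levels of the antimicrobial peptide and Osiris lists (0.97 each) and of the list of other cuticle proteins (0.73) had pool 2 as their high end. In the antimicrobial peptide and Osiris lists, 7 of 8 and 4 of 4 varying genes were tested only because of pool 2. So was *Vajk1*, the only varying gene on the list of other cuticle proteins. The same limit holds for *CG14961*, *CG15712*, *Muc91C*, *Jhbp4*, *Cpr23B*, *TwdlV* and *Ccp84Ac*. These gaps thus follow in part from the limit on intensity. Of the 18 tested genes on the list of other cuticle proteins, 5 were highest and 6 lowest in pool 2. Over all 23 on the array, with no limit, the mean log2 level was 8.85, 8.94, 8.78, 8.8 and 8.81 in pools 1 to 5.

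Pool 2 was far below the others for *CG45067* (0.94), *side-III* (0.93), *CG17572* (0.92), *CG13288* (0.77) and *Epac* (0.73, in 1 of its 2 tested probe sets). It was so too for the level of the Turandot stress genes (0.74), which rested on the 2 tested of 5 on the array. Of these 2, *TotE* alone varied and was dim, with intensities of 93.9, 21.4, 90.4, 63.4 and 96.5. Pool 3 was far below for *mod(mdg4)* (0.89), *ms(3)76Ba* (0.88), *CG12477* (0.79) and *CG18132* (0.72). Pool 1 was far below for *CG3216* (0.71) and far above for *CG13502* (0.74). It was also the low end for *FASN1* (0.75), whose whole range was 0.04 log2 units. Pool 5 was far below for *nompA* (0.84) and far above for *Lsp2* (0.72).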

How the results depend on the processing

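No paired analysis was possible because the 5 pools form 1 group. The count of 384 varying probe sets was 587 with a mean of at least 16 and 180 with a mean limit 4 times as high, where more and fewer probe sets were tested, and 222 to 358 when 1 pool was left out, the lowest without pool 2. Pool 2 was the pool farthest from the median in 52.9% of the varying probe sets, beside 33.7% of all tested, in 58.8% with an offset of 64, in 45.2% with a median of at least 64, and in 51.7% to 78.1% when another pool was left out. The first component carried 66.1% with a mean of at least 16, and 73.5% to 87.3% when 1 pool was left out. The 106 probe sets with pool 2 high were 45 with a mean limit 4 times as high and 51 with a median of at least 64. The 94 with pools 1 and 2 high were 41 where the step had to take 0.7 of the range. The alternatives for these pattern counts, and the list levels without a limit on intensity, were chosen after seeing the data. Other alternatives kept the counts within 1.5 times. Of 588 list counts 65 and of 900 SDs of named genes 81 moved by more than the limits set for them. Probe sets near the intensity limit are the least certain, and the number of arrays limits the precision.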
